A study of Homo sapiens with 2 samples.

Results

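The HOX cluster genes are the 39 protein-coding genes named HOXA, HOXB, HOXC or HOXD plus a number, of 20033 protein-coding genes in the RefSeq table of GRCh38.p14. They sit in 4 clusters: HOXA on chromosome 7 (27092993 to 27200091, 11 genes), HOXB on chromosome 17 (48528526 to 48728750, 10 genes), HOXC on chromosome 12 (53938831 to 54056030, 9 genes) and HOXD on chromosome 2 (176087487 to 176190907, 9 genes). Every called interval from 100 kb before to 100 kb after each cluster was taken, which gave 6 of 6370 intervals with siEWS-FLI and 15 of 16284 with siNEG. The intervals come from CUT&Tag, an assay in which an antibody guides a transposase to the DNA around its target. The series' design text names binding of EWS-FLI, the fusion transcription factor of Ewing sarcoma with the DNA-binding domain of the ETS factor FLI1, as what was assayed. The antibody is not named in the sources used here, so what the pileups report rests on that text. The cells were TC32, an established Ewing sarcoma line, given siEWS-FLI or, as the group it is set beside, siNEG, a name that the labels do not spell out. Each group was 1 library of this single line with 34 PCR cycles, so no difference has a replicate check and no test was made.

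HOX proteins are homeodomain transcription factors that give the body axis and limbs their regional identity. Within a cluster the genes are read in the same direction, and low numbers act towards the head and high numbers towards the tail and the limb ends. In cells that do not use them, HOX clusters are a classic target of Polycomb repression, while MLL and menin keep them active. High expression of the HOXD genes of the tail end is a known feature of Ewing sarcoma.

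A minority of HOX genes had a site in either library, and HOXC was the cluster with the most. Within 1 kb of a HOX gene or inside it, summits lay at 4 of 39 genes with siEWS-FLI and at 6 with siNEG, against 20.7% and 46.7% of all protein-coding genes. All 6 genes belonged to HOXC, and the 4 were among the 6. The order of the libraries turned with the siNEG list shortened to the length of the siEWS-FLI list, with 4 genes for siEWS-FLI and 1 for siNEG. That cut kept only the siNEG intervals of highest −log10 q, while the siEWS-FLI list kept its weakest ones. With the same cut in both lists, −log10 q of at least 2, summits lay at 1 HOX gene with siEWS-FLI and at 5 with siNEG, so the order did not turn. Over the 4 regions as a whole, intervals stood at 4.52 per Mb with siEWS-FLI (95% Poisson interval 1.66 to 9.83) and 11.3 per Mb with siNEG (6.32 to 18.6), against 2.06 and 5.28 per Mb over all chromosomes. The siEWS-FLI interval contains the value of all chromosomes, and the siNEG interval lies above it. Of the 15 siNEG intervals 7 lay in the flanks, and 8 lay in the HOXC region against 0 in HOXA, so a pooled rate does not describe each region. The value of all chromosomes was not matched for gene density, so no enrichment at HOX genes is shown. The site at HOXC13 was the only interval of these regions called in both libraries. No interval was called in the HOXA region in either library. Values below are summit pileups, the raw number of extended reads over the highest base of an interval. Their 95% Poisson intervals cover counting error only, and reads amplified by PCR are not independent molecules.

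**Figure D1:**
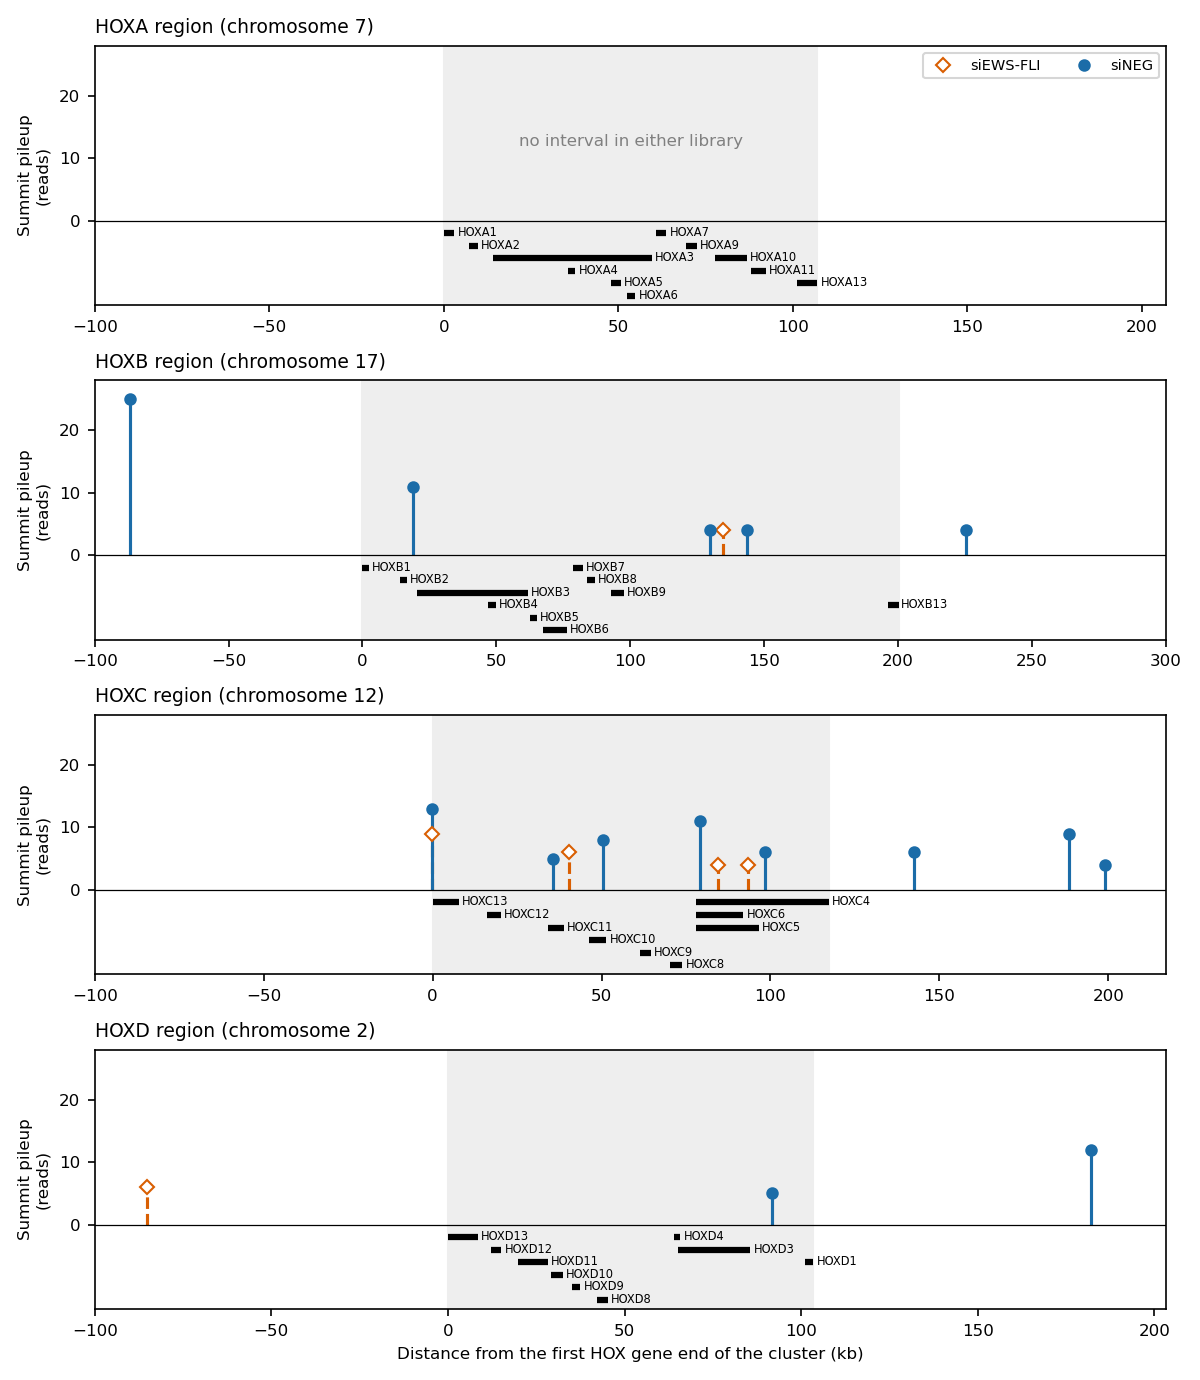
Summit pileup in reads (vertical axis, above 0) by distance in kb from the first HOX gene end of each cluster, for the siEWS-FLI library (open diamonds, dashed lines) and the siNEG library (filled circles). HOX genes are black bars in lanes below 0 that carry no value, and the cluster is shaded; the HOXA region is empty, and only the HOXC13 end has a mark of both libraries (9 and 13 reads).

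Of the promoter windows in the RefSeq table, which run from 250 bases before to 50 after a start, no HOX window held a summit of either library. The table has windows for 20 of the 39 genes, and of HOXC for HOXC4 and HOXC5 alone. HOXC13 has no window, so its site, with summits 249 and 254 bases outside the gene, could not be counted. The absence therefore does not cover all HOX promoters. Windows of the neighbours MTX2 and LNPK did hold a summit. The sequences are shown 5′ to 3′ on the strand of the gene to set the start shared by HOXC4 and HOXC5 beside these neighbours. Capitals mark GGAA, the core of ETS sites, on either strand (GGAA or TTCC).
HOXC4 and HOXC5, plus strand, chr12:54016638-54016937, nearest summit 1144 bases past the start with siNEG: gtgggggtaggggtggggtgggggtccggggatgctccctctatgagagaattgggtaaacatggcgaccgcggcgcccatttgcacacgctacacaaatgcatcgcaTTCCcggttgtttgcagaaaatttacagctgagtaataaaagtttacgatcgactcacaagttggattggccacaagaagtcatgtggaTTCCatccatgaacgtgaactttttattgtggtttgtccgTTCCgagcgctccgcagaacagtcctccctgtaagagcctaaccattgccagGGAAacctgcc
LNPK, minus strand, chr2:176002296-176002595, summit 12 bases before the start with siEWS-FLI: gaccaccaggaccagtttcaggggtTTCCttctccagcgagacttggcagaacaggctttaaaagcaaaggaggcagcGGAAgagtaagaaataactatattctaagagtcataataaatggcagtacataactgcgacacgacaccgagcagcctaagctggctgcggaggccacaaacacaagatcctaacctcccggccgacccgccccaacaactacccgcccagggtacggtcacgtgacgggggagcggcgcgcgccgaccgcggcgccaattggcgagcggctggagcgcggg
MTX2, plus strand, chr2:176269192-176269491, summit 14 bases before the start with siNEG: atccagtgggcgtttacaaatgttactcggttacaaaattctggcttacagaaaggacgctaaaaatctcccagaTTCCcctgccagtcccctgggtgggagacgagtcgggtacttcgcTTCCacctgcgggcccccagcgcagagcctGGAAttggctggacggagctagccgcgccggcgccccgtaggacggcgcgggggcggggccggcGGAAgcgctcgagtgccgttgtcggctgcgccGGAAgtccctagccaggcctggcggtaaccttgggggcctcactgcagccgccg
The HOXC4 and HOXC5 window has 4 such cores, that of LNPK 2 and that of MTX2 5, and none has the repeat GGAAGGAA on either strand. Their GC content was 51.7%, 58.7% and 65.3%. A match of letters is a description and not a bound site.

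At HOXC13, which regulates hair and nail keratin genes, the pileup was 9 reads with siEWS-FLI (4.12 to 17.1; 53938447 to 53938699) and 13 with siNEG (6.92 to 22.2; 53938421 to 53938766). The siEWS-FLI interval lay wholly within the siNEG interval. The summits were 5 bases apart, 249 and 254 bases outside the gene, and inside the antisense gene HOXC13-AS. The read counts carry no strand, so the 2 genes cannot be told apart. These summits lay on the side facing away from the cluster. That is the start of HOXC13 if it is read on the plus strand, as HOXC4 is. The counting intervals overlap, and the raw ratio, siEWS-FLI over siNEG, was 0.692 (0.261 to 1.75). Of 2324 siNEG intervals on all chromosomes with 11 to 15 reads, 385 (16.6%) were also called with siEWS-FLI, with a median ratio of 0.533 and 0.333 to 0.818 from the 10th to the 90th percentile. HOXC13 therefore lay inside the spread of ratios at sites of like height called in both libraries. Only sites with at least 4 siEWS-FLI reads, the smallest pileup called, enter that spread. It leaves out the lowest ratios and does not describe all siNEG sites of that height. The site ranked higher within the siEWS-FLI list than within the siNEG list, with 90.2% and 76.2% of intervals below it by −log10 q. These lists differ in length and depth, so the ranks show no change.

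HOXC4, HOXC5 and HOXC6 had a siNEG site inside them, past their start. These genes, active at the level of the neck and chest, begin at the same base in the RefSeq table and share their sites. A siNEG interval of 619 bases (54017805 to 54018423) had 11 reads (5.49 to 19.7) at a summit 1144 bases past that start. No siEWS-FLI interval was called there. At the siNEG local background, 6 siEWS-FLI reads or fewer would fall short of a call. At HOXC13 the local background was 0.26 reads per base with siEWS-FLI and 0.50 with siNEG. Limits taken from the siNEG background, here and below, may thus be too high. The siEWS-FLI library had 4 reads (1.09 to 10.2) at 54023236 to 54023435, inside all 3 genes and 5.30 kb from the siNEG summit. It also had 4 reads at 54032097 to 54032296, inside HOXC4 and HOXC5. A second siNEG site inside HOXC4 (54037014 to 54037213) had 6 reads (2.2 to 13.1). The 3 genes are thus counted in both libraries without sharing an interval.

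HOXC10 and HOXC11, genes of the lower trunk and hindlimb, had siNEG sites only. HOXC10 had 8 reads (3.45 to 15.8; 53989241 to 53989440) inside the gene, and HOXC11 had 5 (1.62 to 11.7; 53974469 to 53974822) inside the gene and inside HOTAIR, a long noncoding RNA gene that overlaps it. With siEWS-FLI, 6 reads (2.2 to 13.1; 53979045 to 53979244) lay between HOXC11 and HOXC10, 1.59 kb outside HOXC11 and 4.71 kb from the nearest siNEG summit. HOXC8, HOXC9 and HOXC12 had no summit within 1 kb. Their nearest ones were 10.6, 20.0 and 16.3 kb away with siEWS-FLI and 5.26, 10.8 and 15.6 kb away with siNEG. Beyond HOXC4, siNEG had 3 flank sites, none called with siEWS-FLI. The sites of 6 and 9 reads lay inside the noncoding genes FLJ12825 and LINC02381, and the site of 4 reads lay inside no listed gene, 20.5 kb from SMUG1. Intervals stood at 12.6 per Mb with siEWS-FLI (3.44 to 32.3) and 25.2 per Mb with siNEG (10.9 to 49.7) in the HOXC region, against 2.06 and 5.28 per Mb over all chromosomes. HOXC was singled out as the region with the most intervals, and gene density was not matched, so no enrichment is shown. Rates in HOXB and HOXD were 2.5 and 3.3 per Mb with siEWS-FLI and 12.5 and 6.59 with siNEG. Their Poisson intervals contain the values of all chromosomes.

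In the HOXB region the siEWS-FLI library had a single interval of 4 reads (48663061 to 48663260), and the siNEG library had 5 intervals. The strongest of any HOX region, 25 siNEG reads (16.2 to 36.9; 48441265 to 48441700), lay inside SKAP1, which encodes a T-cell adaptor, 87.0 kb from HOXB1. It had a high local background of 1.88 reads per base, at which 8 siEWS-FLI reads or fewer fall short of a call. Inside the cluster the strongest site had 11 siNEG reads (5.49 to 19.7; 48547091 to 48547466). It lay between HOXB2 and HOXB3, genes of the hindbrain, inside HOXB-AS1, 1.56 kb from HOXB3 and 2.2 kb from HOXB2. The other siNEG intervals had 4 reads each: 2 in LINC02086, in the stretch without HOX genes between HOXB9 and HOXB13, and 1 in LOC105371812 towards TTLL6. The siEWS-FLI interval was also in LINC02086, 4.96 kb from the nearest siNEG summit. No HOXB gene had a summit within 1 kb. The distance from a HOXB gene to a summit ran from 36.8 to 132 kb with siEWS-FLI and from 1.56 to 48.4 kb with siNEG.

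The HOXD cluster had no siEWS-FLI interval between its outermost genes and 1 siNEG interval. That interval had 5 reads (1.62 to 11.7; 176178958 to 176179366), inside HAGLR, a noncoding gene that lies between HOXD3 and HOXD1, and 6.05 kb from HOXD3. Given the siNEG local background at that place, 3 siEWS-FLI reads or fewer fall short of a call. HOXD9 to HOXD13, genes of the limbs and the tail end, had their nearest siEWS-FLI summit 120 to 85.1 kb away, at LNPK, and their nearest siNEG summit 54.2 to 83.2 kb away, at HAGLR. In the flanks, the siEWS-FLI site at the start of LNPK, which encodes a protein of the endoplasmic reticulum, had 6 reads (2.2 to 13.1; 176002168 to 176002367). The nearest siNEG summit lay 177 kb from it. On the other side, MTX2, which encodes a mitochondrial outer membrane protein, had 12 siNEG reads (6.20 to 21.0; 176269267 to 176269640) at its start. Given the siNEG local background there, 4 siEWS-FLI reads or fewer fall short of a call. Each library thus had a start-site summit in a flank of this cluster and none within 1 kb of a HOXD gene.

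**Figure D2:**
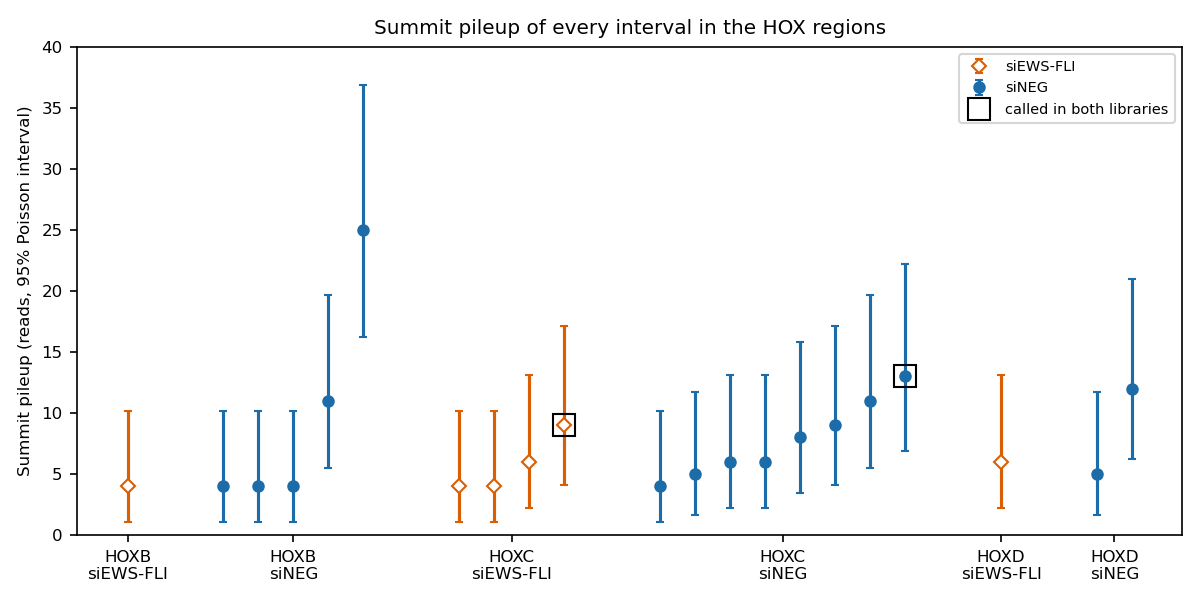
Summit pileup in reads with its 95% Poisson interval (counting error only) for all 6 siEWS-FLI intervals (open diamonds) and all 15 siNEG intervals (filled circles) of the HOXB, HOXC and HOXD regions, sorted within each group. siEWS-FLI pileups run from 4 to 9 reads and siNEG pileups from 4 to 25, and squares mark the HOXC13 interval called in both libraries.

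The HOXA region of 307 kb was empty in both lists. At counting error alone, 0 intervals allows up to 12 per Mb (upper 95% Poisson bound) in each library, above the 2.06 and 5.28 per Mb of all chromosomes, so an empty region of this length does not separate HOXA from the rest. The nearest summits lay 228 kb below the cluster in both libraries, next to SKAP2, with 7 reads with siEWS-FLI and 11 with siNEG. Above it they lay 499 kb away with siEWS-FLI (4 reads) and 463 kb away with siNEG (6 reads), the second next to HIBADH. The gaps between summits were 834 kb with siEWS-FLI and 798 kb with siNEG. Of all protein-coding genes 31.6% lay in siEWS-FLI gaps and 11.1% in siNEG gaps at least that long.

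Most HOX-region intervals were not called in the other library. With siEWS-FLI 1 of 6 intervals (16.7%, exact binomial interval 0.421 to 64.1) was also called with siNEG, against 41.1% over all chromosomes. With siNEG 1 of 15 (6.67%, 0.169 to 31.9) was also called with siEWS-FLI, against 15.6%. Both exact intervals contain the share of all chromosomes. The siNEG sites were low: their median was 6 reads, against 8 for the whole list, and 6 of the 15 had 4 or 5 reads, a height at which 1.24% of all siNEG intervals were called in both libraries. Of the 5 siNEG sites of 10 to 25 reads, 1 was shared, against 19.6% of all such intervals. Among siEWS-FLI intervals 5 of 6 had the narrowest width of 200 bases, as had 71.4% of that list, and the median was 5 reads in the HOX regions and in the list. Of the 5 siEWS-FLI-only intervals, 4 had a siNEG summit within 10 kb, at 4.71 to 5.30 kb, against 17.5% of siEWS-FLI-only intervals on all chromosomes, in a window chosen after the values were seen.

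**Figure D3:**
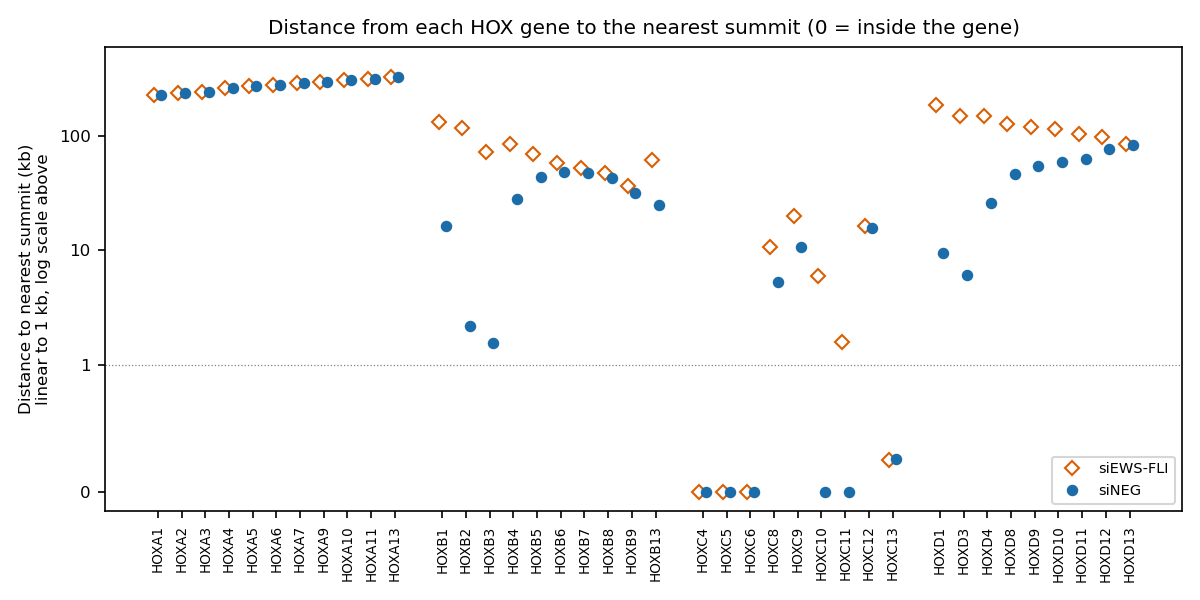
Distance in kb from each of the 39 HOX genes to the nearest siEWS-FLI summit (open diamonds) and siNEG summit (filled circles), on an axis that is linear up to 1 kb (dotted line) and logarithmic above; 0 is inside the gene. Only HOXC genes lie below the line, the HOXA genes lie at 228 to 330 kb in both libraries, and the siNEG distance is shortest in HOXB at HOXB3 and in HOXD at HOXD3.

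By position along the body axis, none of the 8 genes numbered 1 to 3 had a summit within 1 kb in either library. HOXC, the only cluster with such summits, has no gene numbered 1 to 3, so this restates the difference between clusters and shows no axis pattern. Median distances for genes numbered 1 to 3, 4 to 8 and 9 to 13 were 12.9, 43.9 and 56.7 kb with siNEG. With siEWS-FLI they were 168, 69.4 and 91.3 kb. Of the 15 genes numbered 4 to 8, 3 had one with siEWS-FLI and the same 3 with siNEG (HOXC4, HOXC5 and HOXC6). Of the 16 genes numbered 9 to 13, 1 had one with siEWS-FLI (HOXC13) and 3 with siNEG (HOXC10, HOXC11 and HOXC13). The remaining 33 HOX genes had none in either library. Median distances from a gene to the nearest summit were 105 kb with siEWS-FLI and 43.9 kb with siNEG for HOX genes, against 61.7 and 3.78 kb for all protein-coding genes.

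HOX genes are short, with a median of 3.79 kb against 24.1 kb for all protein-coding genes, which leaves less room for a summit inside. Among 7287 protein-coding genes of 2.31 to 18.9 kb, the 10th to 90th percentile of HOX gene length, 16.5% had a siEWS-FLI summit and 38.9% a siNEG summit inside or within 1 kb. The HOX genes of that length had them in 3 and 5 of 31 cases (9.68% and 16.1%). Counted only within 1 kb of either gene end, a window that does not grow with the gene, siEWS-FLI summits lay at 1 of 39 HOX genes (HOXC13), against 12.3% of all protein-coding genes. With siNEG they lay at 2 of 39 (HOXC10 and HOXC13), against 34.1%. SOX, FOX, PAX and NKX genes, other families of developmental transcription factors, had a summit inside or within 1 kb in 8 of 93 cases with siEWS-FLI (8.60%, 3.79 to 16.2) and 22 of 93 with siNEG (23.7%, 15.5 to 33.6). The HOX shares of 10.3% (2.87 to 24.2) and 15.4% (5.86 to 30.5) overlap these, so the HOX genes are not shown to differ from them. HOX genes lie side by side and share sites, so they are not independent and these binomial intervals are too narrow.

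**Figure D4:**
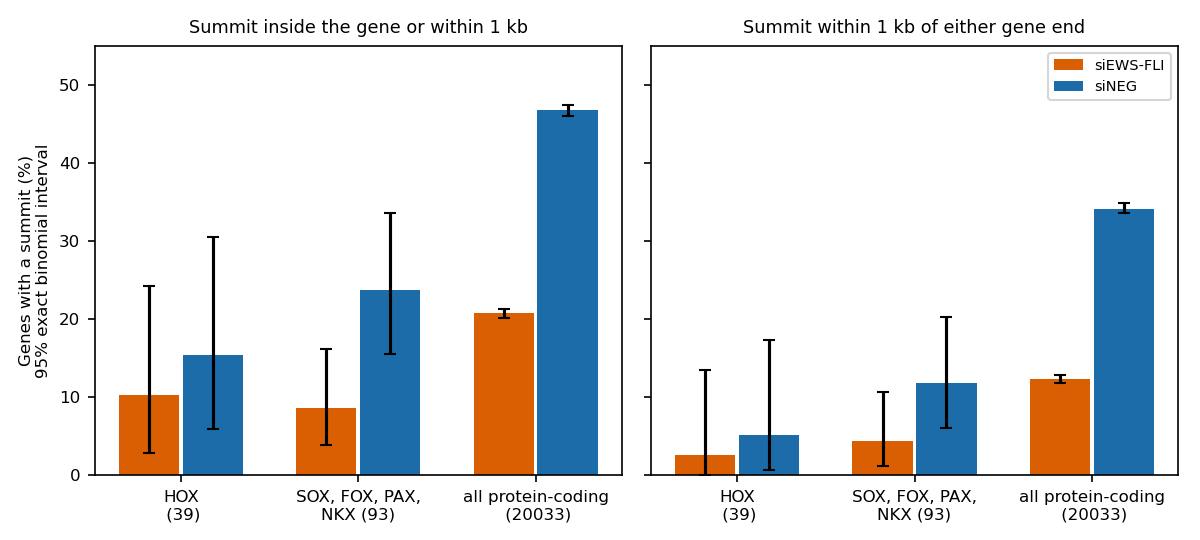
Share of genes in percent with a siEWS-FLI (orange, left bar) or siNEG (blue, right bar) summit inside the gene or within 1 kb (left panel) and within 1 kb of either gene end (right panel), with 95% exact binomial intervals, for 39 HOX genes, 93 SOX, FOX, PAX and NKX genes and 20033 protein-coding genes. In both panels the siNEG bar of the HOX genes (15.4% and 5.13%) is below that of all protein-coding genes (46.7% and 34.1%).

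The promoter windows of the HOX genes were as rich in CG dinucleotides as those of other genes. The 27 windows of the 20 HOX genes in the table had a median of 22 CG, against 21 in 22198 windows of all protein-coding genes. With 20 to 29 CG, 0 of 11 HOX windows had a summit of either library within 1 kb of the start. Counted as independent, this allows up to 28.5% (exact binomial bound), against 21.5% of all such windows with siEWS-FLI and 52.0% with siNEG. The 11 windows belong to 9 genes of HOXA and HOXD that lie side by side, so they are not independent and the bound is too low. With 30 or more CG, 0 of 4 HOX windows had such a summit, which allows up to 60.2%, against 14.9% and 45.9%. That bin shows no difference in either library. By gene, 0 of 20 HOX genes had a summit within 1 kb of a start in either library, which allows up to 16.8% (exact binomial bound), against 13.6% of 15842 protein-coding genes with siEWS-FLI and 36.9% with siNEG. Of HOXC, the only cluster with a summit within 1 kb of a gene, the 20 include HOXC4 and HOXC5 alone, which share a start. HOXC13 is not among the 20. The 0 thus describes mostly the clusters without such summits and cannot stand for HOX starts as a whole. A GGAA core on either strand was present in 88.9% of HOX windows and 95.1% of all windows, with a median of 3 in each. The repeat GGAAGGAA, which contains that core, was present on either strand in 3.7% of each; the HOX window that held it was that of HOXA2. TGATTGAT, a core bound by HOX and PBX proteins together, was found on either strand in the windows of HOXA2 and HOXD11 (2 of 27, 7.41%), against 0.369% of all windows. With 2 windows, among HOX windows that are not independent, no enrichment is shown.

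Noncoding genes held several of the cluster sites. Of 24 lncRNA genes that overlap the clusters, 2 had a siEWS-FLI summit inside (HOXC13-AS and LINC02086), against 4.8% of all 18303 lncRNA genes. With siNEG 5 had one (HAGLR, HOXC13-AS, HOTAIR, HOXB-AS1 and LINC02086), against 11.2%. The exact intervals of these shares, 8.33% (1.03 to 27.0) and 20.8% (7.13 to 42.2), contain those of all lncRNA genes. None of the 6 miRNA genes of the clusters, MIR10A, MIR10B, MIR196A1, MIR196A2, MIR196B and MIR615, had a summit within 1 kb in either library. The share over all miRNA genes was not computed, so no lack of sites at these 6 is shown. The closest were MIR615, 1.75 kb from a siEWS-FLI summit and 3.06 kb from a siNEG summit, and MIR196A2, 2.4 kb from a siNEG summit.

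At several partners of HOX proteins and regulators of HOX genes the siNEG pileup was above the highest of any HOX gene, 13 reads. Of all siNEG intervals 69.2% had fewer than 13 reads, so a pileup of that height is not particular to these genes. Of 8 genes reported of the PBX, MEIS and PKNOX families, whose proteins bind DNA together with HOX proteins, 2 had a siEWS-FLI summit inside or within 1 kb and 4 a siNEG summit. Over all protein-coding genes these shares were 20.7% and 46.7%, so the counts are near the background. PKNOX1 shared a site with 10 reads with siEWS-FLI (4.80 to 18.4), 0.248 kb outside the gene, and 21 with siNEG (13 to 32.1). PBX4 had 5 and 8 reads at different positions. MEIS2 (8 reads) and MEIS1 (7) had siNEG summits alone. Of 12 chromatin regulators 5 had a siEWS-FLI summit and 7 a siNEG summit, beside the same 20.7% and 46.7% of all protein-coding genes, and with 12 genes nothing particular to them is shown. CTCF, which shapes the loops of the clusters, shared a site with 8 reads with siEWS-FLI (3.45 to 15.8) and 20 with siNEG (12.2 to 30.9). KMT2A, the MLL methyltransferase, shared 6 reads with siEWS-FLI (2.2 to 13.1) and 19 with siNEG (11.4 to 29.7), and the Polycomb partner PHF19 shared 6 and 15. MEN1, which encodes menin, had 5 reads with siEWS-FLI and 18 with siNEG at different positions, and its siEWS-FLI site met a weaker siNEG interval. DOT1L had 4 siEWS-FLI reads alone. Of the caudal and even-skipped genes CDX1, CDX2, CDX4, EVX1 and EVX2, 1 had a siEWS-FLI summit (CDX2, 4 reads) and 0 a siNEG summit. EVX1 and EVX2, which adjoin HOXA and HOXD, were 378 and 75.1 kb from a siEWS-FLI summit and 378 and 95.2 kb from a siNEG summit.

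Depth limits all of these values. The background was 0.239 reads per base with siEWS-FLI and 0.348 with siNEG, and the smallest pileup called was 4 reads in each library. Pileups of 3 reads or fewer therefore go unseen at that background, and an uncalled HOX gene is not shown to be unbound. Pileups were not scaled between libraries, so a lower raw pileup and a shallower library cannot be told apart. The level of the fusion, and of any HOX transcript, is not measured by these data. As a check of the label, all 5 of the EWS-FLI1 target genes NR0B1, CCND1, PRKCB, NKX2-2 and STEAP1 had a siNEG summit within 50 kb and 2 a siEWS-FLI summit; over all 20033 genes these shares were 73.3% and 46.1%, so this does not separate them.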

How the data were processed

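The deposited CUT&Tag peak lists were used, 1 for siEWS-FLI and 1 for siNEG. Per the submitters' processing notes the tools were Trim Galore 0.6.6, Bowtie2 2.4.5 and MACS2 2.2.9.1 with the build hg38, without roles; a control library and duplicate handling were not given in the sources used here. Per line the lists give an interval, a score (the deposited score was not used), the deposited fold enrichment (a ratio over the local background), the −log10 p and −log10 q, and the summit. Pileup and local background were solved from the deposited ratio, (pileup + 1) / (background + 1), and the deposited −log10 p, taken as a Poisson upper tail, within 0.001 (scaled up in proportion above 10). This gave a whole pileup for 100% of lines and was tested on simulated data. Lines sharing an interval were merged (6559 lines gave 6370 intervals with siEWS-FLI, and 17313 gave 16284 with siNEG), keeping the highest −log10 q, and for a tie the first summit; intervals overlapping by at least 1 base were shared. Gene positions and promoter sequences came from RefSeq GRCh38.p14, the assembly behind hg38. HOXA10-HOXA9, a readthrough gene, was not counted. Every HOX gene with a summit inside or within 1 kb and every interval of the regions was named; other lists name the strongest 4 and all with siEWS-FLI summits. Of the list of HOX cofactors, 1 gene is not reported here. With 1 library a group no test was run. Poisson and binomial intervals are exact, at 95%. The members and lists were chosen with earlier results of these data known. Python 3.11.15, scipy 1.17.1 and pandas 2.3.3 were used.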

Additional observations from a re-analysis of the deposited data

How the results depend on the processing

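No paired analysis was possible because each group has 1 library. Of 54 values under 13 settings, 33 stayed within 1.5 times the reported count or within the counting interval of the reported share or pileup. At −log10 q of at least 2, 3 siEWS-FLI intervals were left, with summits at 1 HOX gene, and 10 siNEG intervals, with summits at 5. At −log10 q of at least 5, 1 siEWS-FLI interval, that of HOXC13, was left, near 1 HOX gene and 100% shared. With siNEG 7 intervals were left, with summits at 5 HOX genes. Among intervals wider than 200 bases, 1 was left with siEWS-FLI (near 1 gene, 100% shared) and 9 with siNEG (summits at 5 HOX genes). With the siNEG list as long as the siEWS-FLI list, 5 siNEG intervals were left, near 1 HOX gene, below the 4 with siEWS-FLI. Without flanks 8 siNEG intervals were left, the strongest with 11 reads, and 0% of either library's intervals were shared, because the HOXC13 summit lies just outside that gene. With a flank of 50 kb the strongest siNEG pileup was 13 reads. Within 50 kb, 11 HOX genes had a siEWS-FLI and 23 a siNEG summit. Within 1 kb of either gene end, a setting added after seeing the data, they were 1 and 2.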
